A study of Mus musculus with 2 samples.

Results

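Genes for the receptors of dopamine, serotonin, noradrenaline and adrenaline, histamine and acetylcholine were followed in the hypothalamus of mice lacking Crtc1. The members were taken by gene symbol from the platform annotation, by a rule that names no signal but was written with earlier results of these data known. They came to 40 genes with 67 probe sets, of 18193 genes that had a probe set of their own. They were 4 dopamine, 13 serotonin, 1 adrenergic, 4 histamine and 3 muscarinic receptor genes and 15 genes for nicotinic receptor subunits. One array was hybridised per genotype, Crtc1 KO and Crtc1 WT. Each array carried hypothalamic RNA of 3 male mice of 12 weeks, pooled in equal amounts after a fast of 18 h and 6 h of refeeding, both genotypes having been fasted and refed alike. Every value below is therefore that of 1 pool, and no test between genotypes and no p-value can be given. Neither the mouse strain nor how the knockout allele was made is given in the sources used here.

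Receptors for monoamines are mostly G protein-coupled. Those that act through Gs or Golf raise cyclic AMP, those that act through Gi or Go lower it, and those that act through Gq raise calcium. Muscarinic acetylcholine receptors belong to the same superfamily, whereas nicotinic receptors and the serotonin receptor built from Htr3a are cation channels of joined subunits. Cyclic AMP and calcium are also the signals that bring Crtc1, a coactivator of the transcription factor CREB, into the nucleus. In the hypothalamus these receptors take part in the control of feeding, arousal and hormone release.

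CREB binds the cyclic AMP response element, whose full palindrome is TGACGTCA and whose half-site is TGACG. These letters were searched on both strands in the 300 bases around each annotated start, 250 before it and 50 from it on, in RefSeq promoters of GRCm38.p6, and every full palindrome contains half-sites. Of the 40 receptor genes 31 had an entry in the table. Chrm1, Htr3a and Htr4, which are among the genes measured below, had none and were not searched. None of the 31 held the full palindrome in its windows, which 2.03% of all 27025 genes of the table held. The half-site was present in 4 of the 31 (12.9%), against 23.0% of all genes. These 4 promoters are shown because they are the only ones among the 31 with letters that CREB is known to bind, and the capitals mark the half-site or its reverse complement.
Chrnb2, chr3:89764583-89764882, minus strand: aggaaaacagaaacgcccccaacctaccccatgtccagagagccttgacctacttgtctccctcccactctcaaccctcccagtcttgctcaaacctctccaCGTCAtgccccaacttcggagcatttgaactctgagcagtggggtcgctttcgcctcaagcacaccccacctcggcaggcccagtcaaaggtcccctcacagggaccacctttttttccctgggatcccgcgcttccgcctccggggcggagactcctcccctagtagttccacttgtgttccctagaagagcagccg
Htr7, chr19:36057311-36057610, minus strand: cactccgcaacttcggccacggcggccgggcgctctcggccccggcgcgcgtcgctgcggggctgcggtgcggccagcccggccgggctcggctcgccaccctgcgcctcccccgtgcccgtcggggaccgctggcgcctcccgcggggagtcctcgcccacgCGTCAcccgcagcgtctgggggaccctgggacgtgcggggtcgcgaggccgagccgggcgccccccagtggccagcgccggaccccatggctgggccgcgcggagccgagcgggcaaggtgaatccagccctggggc
Chrna5, chr9:54980630-54980929, plus strand: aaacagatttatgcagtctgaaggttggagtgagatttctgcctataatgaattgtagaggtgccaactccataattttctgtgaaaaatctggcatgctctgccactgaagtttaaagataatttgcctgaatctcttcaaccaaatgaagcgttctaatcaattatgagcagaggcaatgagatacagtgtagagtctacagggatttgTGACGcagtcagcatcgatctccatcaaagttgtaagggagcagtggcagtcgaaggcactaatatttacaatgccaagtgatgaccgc
Chrnb1, chr11:69795888-69796187, minus strand: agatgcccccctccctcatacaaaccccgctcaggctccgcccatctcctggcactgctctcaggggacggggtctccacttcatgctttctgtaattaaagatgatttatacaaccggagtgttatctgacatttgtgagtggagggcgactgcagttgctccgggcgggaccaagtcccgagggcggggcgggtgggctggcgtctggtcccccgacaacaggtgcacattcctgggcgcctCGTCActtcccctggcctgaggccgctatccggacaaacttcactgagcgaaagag
The half-site begins at position -148 from the start in Chrnb2, -87 in Htr7, -39 in Chrna5 and -6 in Chrnb1. Chrna5 has another annotated start, whose window holds no match. A match is a string of letters and not a measured binding site.

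The deposited values are linear probe-set signals. The table gives the brightest Crtc1 probe set a signal of 85.1 in the KO pool and 631 in the WT pool, in the direction of the labels. Signals were floored at the 30th percentile of each array, 20.5 in KO and 20.2 in WT, and a probe set was called measured if its log2 signals averaged at least 5.71 across the pools, a signal of 52.3. A gene took the value of its brightest measured probe set. The array error quoted with each difference is an SD on the log2 scale. It measures how far measured probe sets lay from the mean difference of their gene, pooled in bands of each probe set's own signal. As the probe sets of 1 gene can differ in signal, this error is not one between probe sets of like signal. It shrank with the signal, being 0.32 for probe sets of a mean log2 signal under 7, 0.26 between 7 and 8, 0.23 between 8 and 9, 0.21 between 9 and 10 and 0.16 over 10. It contains no spread between mice. Signals of different probe sets are not comparable as transcript levels. Of the hypothalamic markers, Otp, Hcrt, Pmch, Trh, Avp and Oxt were measured in both pools, while Sim1, Nkx2-1, Fezf1, Hmx2, Hmx3 and Nr5a1 were below the limit.

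Of the 40 receptor genes 16 were measured, and these differed little between the pools. None of the 16 reached a 1.5-fold difference, against 3.50% of all 11312 measured genes, a background at which a count of 0 among 16 genes is no result about receptors. At 1.2-fold, 2 of the 16 passed, Htr4 higher and Adra1b lower in KO, against 21.9% of all measured genes. Beyond their own array error were also 2, Chrm1 and Htr4, against 25.2% of all measured genes. Chrm1 stayed beyond its error in all 10 alternatives, though the other floors and filters and leaving out probe sets left its value unchanged. Htr4 lay inside its error, and Adra1b beyond its own, with each of the 3 other scalings. With averaged probe sets Drd1, Chrna7 and Htr7 passed theirs too. The error is that of single probe sets, and no share of all genes was counted for averages. The differences ran from -0.31 to 0.37 with a median of 0.02 on the log2 scale, beside a median of 0.00 over all measured genes. As deposited 9 were higher and 7 lower in KO, where 50.9% of all measured genes were higher, and with the arrays centred on their medians 7 were higher and 9 lower. No measured receptor probe set was at the floor on either array. Hrh2 read under the limit of 52.3 in KO and so counted as measured only through its higher signal in WT, as the mean over both pools sets the limit. The same holds for 2 dimmer probe sets, 1 of Htr7 through WT and 1 of Chrna7 through KO.

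**Figure D1:**
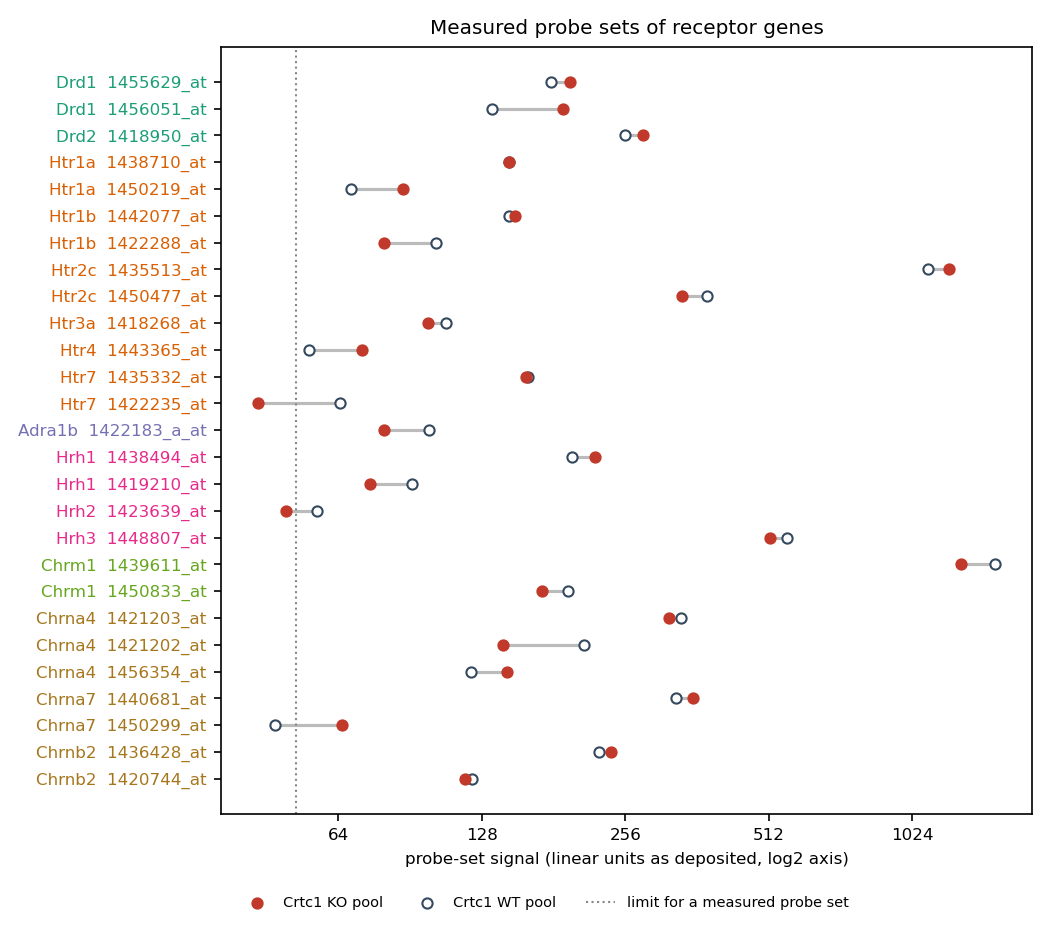
Signal of each measured receptor probe set in the Crtc1 KO pool (filled) and the Crtc1 WT pool (open), on a log2 axis of the deposited linear units, 1 array per pool, label colours marking the receptor class. Each grey line joins the readings of 1 probe set, and the dotted line is the limit of 52.3 that the mean over both arrays had to reach.

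The dopamine receptor genes had slightly more signal in the KO pool. Drd1 encodes the Gs- and Golf-coupled receptor of the direct striatal pathway, and its brighter probe set read 196 in KO and 179 in WT. The difference was 0.13, 1.10-fold higher and within its array error of 0.26. The other Drd1 probe set read 189 in KO and 134 in WT, 1.41-fold higher (0.49), beyond the same error. Both readings of Drd1 thus had the same sign and differed in size. Drd2, the Gi-coupled receptor that is also the autoreceptor of dopamine neurons and restrains prolactin cells in the pituitary, read 279 in KO and 256 in WT. Its difference of 0.13 was within the array error of 0.23. The signs of Drd1 and Drd2 were kept in all 10 alternative settings, with ranges of 0.07 to 0.31 and 0.07 to 0.13. The other floors and filters and leaving out probe sets left both values unchanged, as did averaging for Drd2. Beside these values, 8 of 10 measured striatal markers were higher in KO, with a median of 0.07 and a summed signal of 7332 in KO and 6920 in WT. Of these 10 markers 1, Rgs9 (0.51, error 0.23), lay beyond its array error, against 25.2% of all measured genes. The part of the striatal markers in the dopamine receptor values was not tested. In RNA of whole tissue a change in the number of cells of a type and a change in RNA per cell cannot be told apart.

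Drd3 and Drd4, both Gi-coupled, were not measured. Drd3 was under the floor in both pools, at 11.4 in KO and 3.5 in WT. The probe sets of Drd4 read 32.1 and 9.0 in KO and 7.9 and 25.0 in WT. They opposed each other, and each was under the floor in 1 pool.

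Serotonin receptor genes were the largest monoamine class, with 6 of 13 measured, 4 higher and 2 lower in KO, and a median of 0.02. Htr2c, the Gq-coupled receptor through which serotonin restrains feeding, was read by a pair of probe sets. The brighter gave 1220.1 in KO and 1103 in WT, a difference of 0.15 within its error of 0.16. The other gave 336 in KO and 379.9 in WT, a difference of -0.18 within its error of 0.23. The readings of Htr2c had opposite signs and their mean was -0.02, so no direction was set. Htr2c is also strongly expressed in choroid plexus, and 9 of 10 measured choroid plexus markers were lower in KO, with a median of -0.27 and a summed signal of 9510.0 in KO and 10708 in WT. Their part in the Htr2c reading was not tested.

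The Gi-coupled receptors Htr1a and Htr1b, which include the autoreceptors of serotonin neurons, were level by their brighter probe sets. Htr1a read 145.9 in KO and 145.8 in WT, and Htr1b read 150.2 in KO and 146 in WT. Their differences were 0.00 and 0.04, with an array error of 0.26. The dimmer probe set of Htr1a gave 87.4 in KO and 68.0 in WT, 1.29-fold higher (0.36, error 0.32). That of Htr1b gave 79.7 in KO and 103 in WT, 1.29-fold lower (-0.36, error 0.32). The pair of receptors therefore diverged by the dimmer probe sets and by no more than 0.04 by the brighter ones.

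Htr7, a Gs-coupled receptor expressed in the suprachiasmatic region, showed the same split. Its brighter probe set read 158 in KO and 159.6 in WT, a difference of -0.01 within its error of 0.26. Its dimmer probe set read 43.4 in KO and 64.6 in WT, 1.49-fold lower (-0.57, error 0.32), the difference of largest size among the 27 measured receptor probe sets. The mean of both was -0.29. This dim probe set lies just inside the limit for a measured one, and in KO it read below 52.3.

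Htr4, another Gs-coupled receptor, was the measured receptor gene with the largest difference. It read 71.6 in KO and 55.5 in WT, 1.29-fold higher (0.37, error 0.32, 1 measured probe set). The difference was 0.30 to 0.31 with the 3 other scalings and 0.29 with a pseudocount, within that error. A second Htr4 probe set, not measured, read 26.6 in KO and 27.4 in WT and was level. In the signal band of Htr4, under 7, 43.2% of the measured genes differed at least 1.2-fold. Htr3a, the channel subunit, read 98.6 in KO and 108 in WT, a difference of -0.12 within its error of 0.32.

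The other 7 serotonin receptor genes were not measured. Htr5a, Htr5b and Htr6 stayed above the floor in both pools. Htr5b read 39.0 in KO and 40.3 in WT, and Htr6, a Gs-coupled receptor studied for its effect on food intake, read 29.4 in KO and 42.4 in WT. The probe sets of Htr5a read 43.6 and 30.1 in KO and 40.1 and 41.1 in WT, with opposite signs. Htr1d was the only unmeasured receptor gene with a signal above the median of an array. Its 3 probe sets read 30.2, 34.1 and 41.2 in KO and 52.6, 29.1 and 14.2 in WT, so the first was lower and the other two were higher in KO. Htr1f, Htr2b and Htr3b had between 1.3 and 20.8 in KO and between 5.2 and 23.0 in WT, at or near the floor.

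The adrenergic receptors were represented by Adra1b alone, a Gq-coupled receptor for noradrenaline. It read 79.9 in KO and 99.1 in WT, 1.24-fold lower (-0.31), within its array error of 0.32. With median centring, quantile normalization and loess it was -0.37, -0.36 and -0.36, beyond that error. Its sign was kept in the 8 alternatives that gave it a value, of which only the scalings and the pseudocount changed that value. Adra2c, a Gi-coupled receptor that the symbol rule does not take, is named here as a relative outside the members. It read 224 in KO and 236 in WT, a difference of -0.07 within its error of 0.26.

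Histamine receptors are of interest in this tissue because histamine neurons lie in the tuberomammillary hypothalamus. Hrh1, the Gq-coupled receptor tied to arousal and appetite, read 221 in KO and 198 in WT by its brighter probe set, a difference of 0.16 within its error of 0.26. Its other probe set read 74.6 in KO and 91.3 in WT, a difference of -0.29 within its error of 0.32. Hrh1 had opposite signs in the 2 readings and a mean of -0.06. Hrh2, which is Gs-coupled, read 49.8 in KO and 57.8 in WT, a difference of -0.21 within its error of 0.32 and just above the limit for a measured gene. Hrh3, the Gi-coupled autoreceptor of histamine neurons, read 515 in KO and 558 in WT, a difference of -0.11 within its error of 0.21. Hrh4, known mainly from blood cells, was under the floor in both pools, at 1.4 in KO and 18.0 in WT.

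Chrm1, a Gq-coupled muscarinic receptor abundant in forebrain neurons, was the bright receptor gene that differed beyond its error. Its brighter probe set read 1292 in KO and 1526 in WT, 1.18-fold lower (-0.24, error 0.16). The other read 171 in KO and 194 in WT, a difference of -0.18 within its error of 0.26. Both readings of Chrm1 were lower in KO, and the sign held in all 10 alternatives, from -0.30 to -0.21. Only the scalings, the pseudocount and averaging changed its value. Among measured genes of mean log2 signal 10 and over, 20.2% lay beyond that error and 4.69% differed at least 1.2-fold, a fold that Chrm1 did not reach. Beside it, cortical and hippocampal markers, whose tissue is rich in Chrm1, were higher in KO for 6 of 10 genes, with a median of 0.15 and a summed signal of 4351 in KO and 3943 in WT. The part of such tissue in the Chrm1 value was not tested. Chrm3, also Gq-coupled, was not measured, at 29.3 in KO and 37.8 in WT, and Chrm4, Gi-coupled, was under the floor in both pools, at 6.5 in KO and 4.6 in WT.

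**Figure D2:**
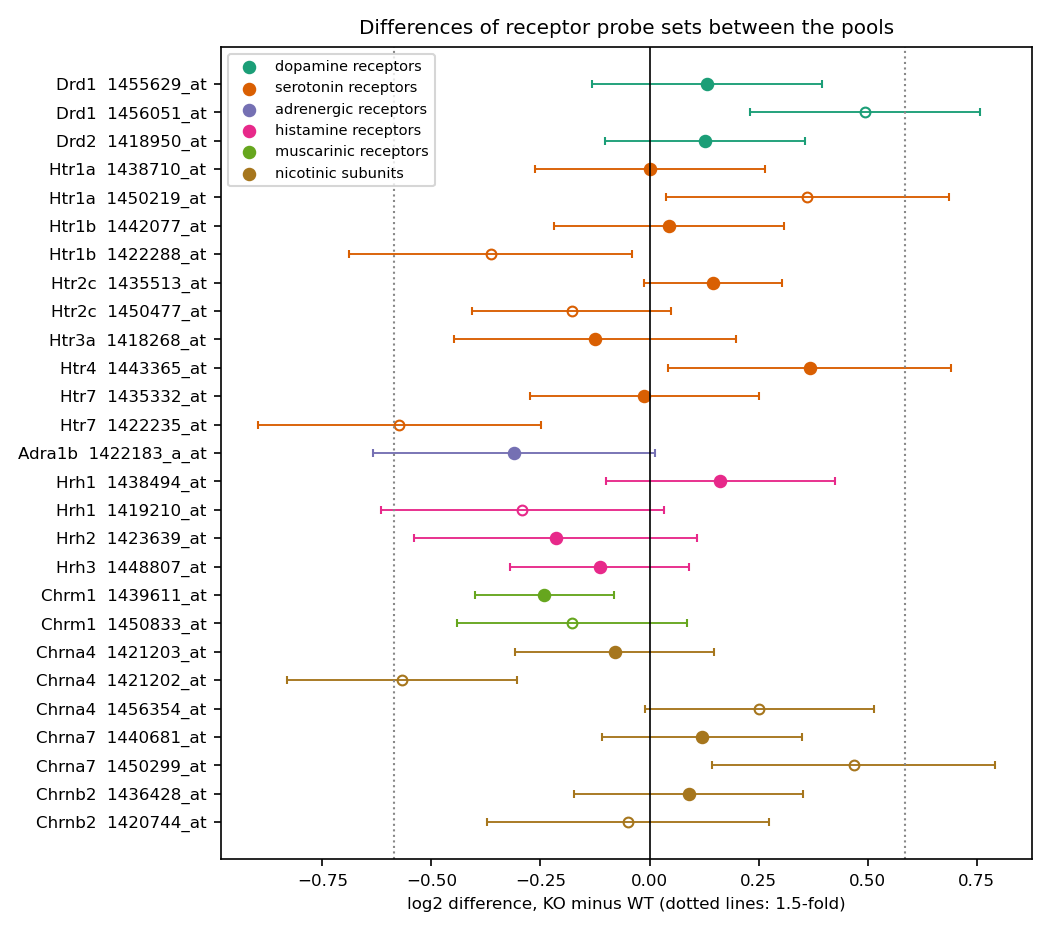
Log2 difference, KO minus WT, of the 27 measured receptor probe sets, with bars of 1 array error on either side. Filled points give the gene's value (its brightest probe set) and open points its other probe sets, and none reaches the dotted 1.5-fold lines. In 8 of the 10 genes with at least 2 measured probe sets, an open point lies farther from 0 than the filled one.

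Of the 15 nicotinic subunit genes only the 3 neuronal subunits that build the main brain receptors were measured. Chrna4 and Chrnb2 join in the high-affinity nicotine receptor, and Chrna7 forms a receptor of its own with high calcium flow. Chrnb2 read 239 in KO and 225 in WT by its brightest probe set, a difference of 0.09 within its error of 0.26. Its second probe set read 118 in KO and 122 in WT, a difference of -0.05. A dimmer one, not measured, read 26.0 in KO and 35.7 in WT. None of the measured readings of Chrnb2 was beyond its error.

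Chrna4 was read by 3 measured probe sets that disagreed. The brightest gave 316 in KO and 334 in WT, a difference of -0.08 within its error of 0.23. The next gave 142 in KO and 209.8 in WT, 1.48-fold lower (-0.57, error 0.26). The dimmest gave 145 in KO and 121.5 in WT, 1.19-fold higher (0.25, error 0.26). Their mean was -0.13. Chrna7 was higher in KO by both of its probe sets, at 355 in KO and 327 in WT by the brighter (0.12, error 0.23). The dimmer gave 65.3 in KO and 47.2 in WT, 1.38-fold higher (0.47, error 0.32). In WT it read below the limit of 52.3, so it counted as measured only through KO.

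The remaining 12 nicotinic genes were not measured. Chrna1, Chrnb1, Chrnd, Chrne and Chrng encode the subunits of the muscle receptor. Chrnb1 read 33.3 in KO and 10.9 in WT, above the floor in KO only, while the other 4 were under the floor in both pools, at 1.8 to 17.1 in KO and 1.6 to 17.5 in WT. Of 12 striated muscle markers 3 were measured, Myl4, Tnnc1 and Acta1, with a summed signal of 631 in KO and 264 in WT, and all were higher in KO. Their part in the Chrnb1 reading was not tested, and the muscle list was written with the higher values of Myl4 and Tnnc1 known.

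Chrna6 and Chrnb3, subunits typical of dopamine neuron terminals, lie on chromosome 8, which also carries Crtc1, and no measured receptor gene does. The probe sets of Chrna6 read 35.8 and 17.8 in KO and 21.1 and 12.1 in WT, and Chrnb3 read 24.7 in KO and 5.2 in WT. The brighter Chrna6 reading was above the floor in both pools and higher in KO, though its 21.1 in WT lay just above the floor of 20.2. The dimmer Chrna6 reading was under the floor in both pools and gives no direction. Chrnb3 was above the floor in KO only. Chrna3, Chrna5 and Chrnb4, which form a gene cluster and a receptor of the habenula, had no probe set above 23.2 in KO or above 28.0 in WT. Chrna2 was under the floor in both pools and the 3 probe sets of Chrna9, a subunit known from hair cells, read 2.0 to 12.4 in KO and 18.7 to 27.2 in WT.

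**Figure D3:**
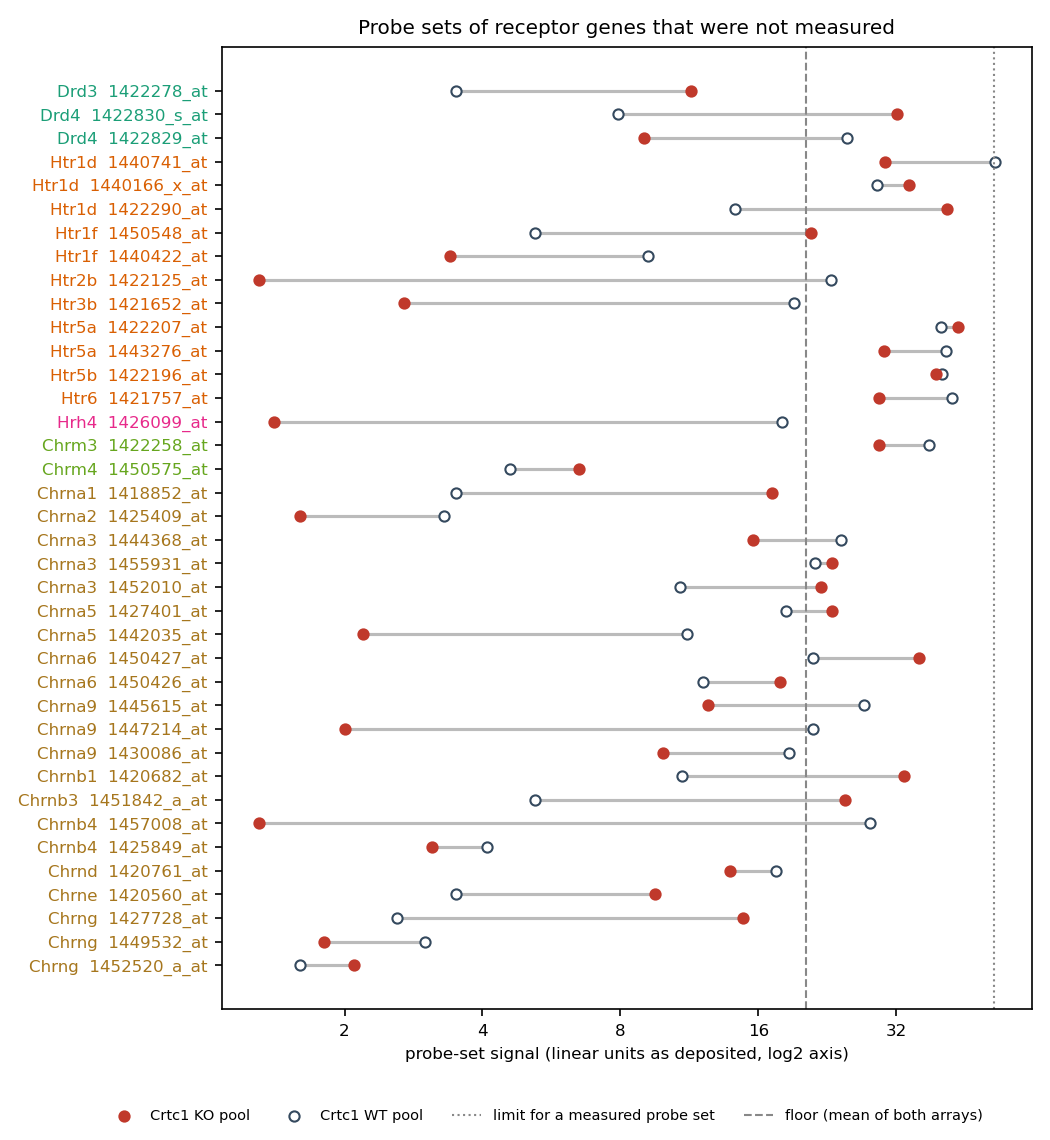
Signal of the 38 probe sets of the 24 receptor genes that were not measured, in the Crtc1 KO pool (filled) and the Crtc1 WT pool (open), on a log2 axis, 1 array per pool. The dashed line is the floor (mean of 20.5 in KO and 20.2 in WT) and the dotted line the limit of 52.3, and long lines between points at the left lie largely under the floor, where signals have no order.

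Repeat readings of the same gene often disagreed. Of the 10 receptor genes with at least 2 measured probe sets, 5 had all readings of 1 sign, against 42.5% of all 5199 such genes. Those 5 were Drd1, Htr1a, Htr7, Chrm1 and Chrna7. The dimmer readings of Htr7 and Chrna7 counted as measured only through the pool where they read higher. Both also enter the counts that follow. In 8 of the 10 the brightest probe set differed less than the next, against 59.9% of all such genes. Over the 27 measured receptor probe sets 13 were higher and 14 lower in KO, and none reached 1.5-fold. Beyond their array error lay 8 of the 27, against 27.8% of all 22519 measured probe sets.

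The genes that make, carry and break down the transmitters included some larger differences than any receptor gene. Of 23 genes on the list 11 were measured, 5 higher and 6 lower, with a median of -0.01. At least 1.5-fold lower were 2, Th, the enzyme that limits catecholamine production, and Slc6a3, the dopamine transporter. Th read 173 in KO and 281 in WT (-0.70, error 0.26) and Slc6a3 read 169 in KO and 269 in WT (-0.67, error 0.26), against 1.44% of all measured genes at least 1.5-fold lower. Ddc, which makes dopamine and serotonin from their precursors, and Slc18a2, the vesicular monoamine transporter, differed by -0.37 and -0.33. These 4 presynaptic values stand beside differences of 0.13 for each of the receptor genes Drd1 and Drd2, and the lower values of these 4 genes were known when the list was written.

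For histamine, the breakdown enzyme gene Hnmt read 210.1 in KO and 144 in WT, 1.46-fold higher (0.55, error 0.26). Hdc, which makes histamine, read 67.2 in KO and 52.7 in WT by its brighter probe set (0.35, error 0.32), with a second probe set of opposite sign and a mean of 0.03. Hnmt thus had 1 reading, beyond its error, beside differences of 0.16, -0.21 and -0.11 for Hrh1, Hrh2 and Hrh3. For acetylcholine, the main breakdown enzyme gene Ache read 1026 in KO and 1031 in WT and was level (-0.01, error 0.16). Bche, a lesser cholinesterase, read 69.9 in KO and 58.0 in WT (0.27, within its error of 0.32). The synthesis and vesicle genes Chat, Slc18a3 and Slc5a7 were not measured.

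The list of proteins that assemble, hold or couple these receptors, on which Adra2c also stands, had 24 of 26 genes measured, 8 higher and 16 lower in KO, with a median of -0.05, and none differed at least 1.5-fold. Tmem35a, a chaperone needed for assembly of the receptor of Chrna7, read 783 in KO and 992 in WT, 1.27-fold lower (-0.34, error 0.21, 1 probe set). It stood opposite in sign to Chrna7 itself, whose difference of 0.12 was within its error of 0.23. S100a10, known as p11, binds Htr1b and carries it to the cell surface. It read 414 in KO and 305 in WT, 1.36-fold higher (0.44, error 0.23), and its 2 probe sets averaged 0.54. No others of the 24 differed at least 1.2-fold, G protein subunits included.

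**Figure D4:**
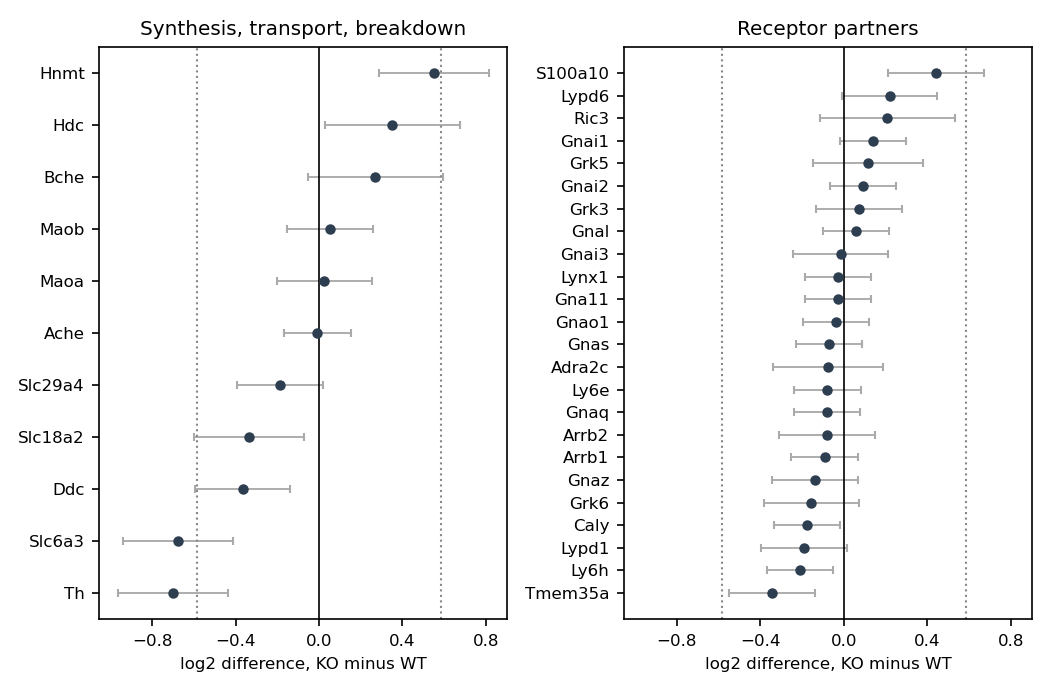
Log2 differences, KO minus WT, of the measured genes for transmitter synthesis, transport and breakdown (left, 11 genes) and of receptor partners (right, 24 genes), with bars of 1 array error on either side and dotted lines at 1.5-fold. Th and Slc6a3 lie past the lower line, and S100a10 and Tmem35a at the ends of the right panel lie inside both lines.

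**Figure D5:**
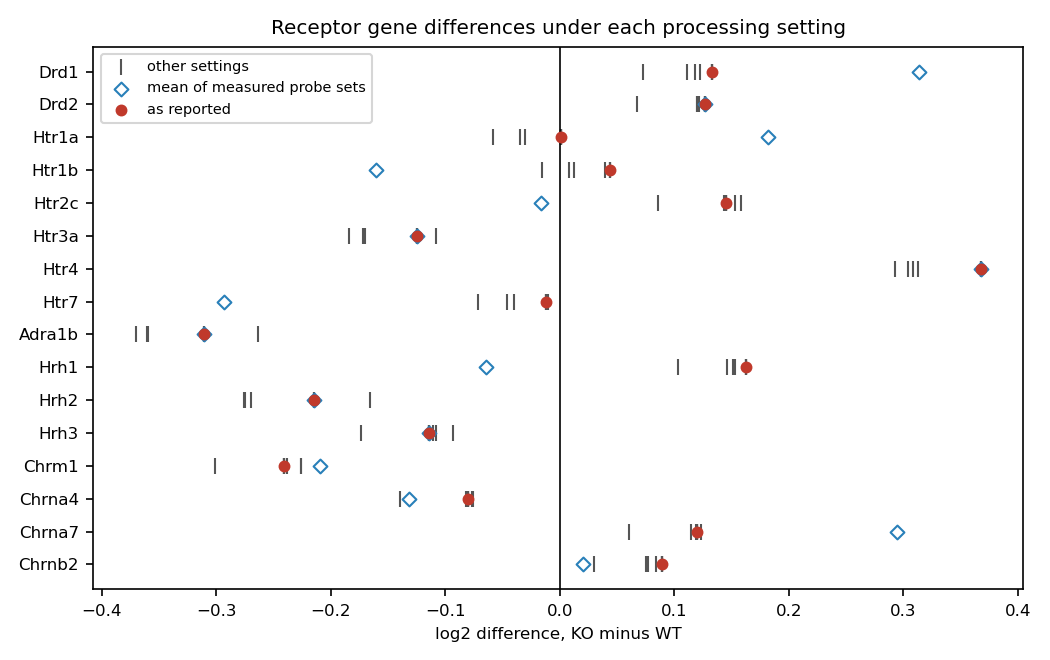
Log2 difference, KO minus WT, of each measured receptor gene as reported (filled), with the mean of its measured probe sets (diamond) and under the other settings (ticks). The diamonds of Htr1b, Htr2c and Hrh1 cross 0, and those of Htr1a and Htr7 lie well apart from the filled points.

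Averaging the probe sets of a gene moved some receptor genes. In the plot by setting, 12 of the 16 genes kept their sign throughout the settings that measured them, while Htr1a, Htr1b, Htr2c and Hrh1 did not. Averaging turned Htr1b (-0.16), Hrh1 (-0.06) and Htr2c negative, and median centring also turned Htr1b, to -0.02. Htr1a stayed positive when averaged, at 0.18, and was negative only with the other scalings. It was -0.06 with median centring, -0.04 with quantile normalization and -0.03 with loess. Htr2c went as low as -0.02 and Htr7 as low as -0.29, both where probe sets were averaged.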

How the data were processed

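Hypothalamic RNA of refed Crtc1 KO and WT mice was measured on 1 array each. The authors' deposited values are linear signal intensities per probe set. The sources used here do not say how the probes were summarised. Trimmed of 2% at either end, the signals averaged 200.0 on both arrays, as scaling by 1 factor per array would give, though no source states it. Their number, 1 array a group, limits the precision.

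The table held 45101 probe sets, 64 of them controls, which were left out. Of the rest, 34945 were paired with 1 gene in GEO's platform annotation, 932 with several and 9160 with none, and symbols were updated by Entrez ID (RefSeq, GRCm38.p6). Signals were floored, put on the log2 scale (difference KO minus WT) and filtered to 22519 measured probe sets with Python 3.11.15, pandas 2.3.3 and statsmodels 0.14.6. The code was tested on simulated data. The members and lists were chosen with earlier results of these data known. All measured members were named, with members of the transmitter and partner lists that differed at least 1.2-fold and the member of largest difference of each marker list. Adra2c, Ache, Tnnc1, Acta1, Pdgfrb and Myh11 were named after their values were seen.

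Alternatives were 3 scalings (median centring, quantile, loess of span 0.3), a lower floor (percentile 10) or a higher one (percentile 50), a pseudocount of 16 in place of a floor, no filter or one at the 70th percentile, the mean of probe sets, and leaving out probe sets that can match several transcripts.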

Additional observations from a re-analysis of the deposited data

How the results depend on the processing

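With no filter on dim probe sets, 4 receptor genes differed at least 1.5-fold in place of 0, against 7.15% of all genes: Chrna6, Chrnb1 and Drd4 higher and Htr1d lower in KO, all of them from dim probe sets. The Chrnb1 and Drd4 readings were under the floor in WT, and that of Chrna6 was just above it. Other probe sets of Drd4 and Htr1d had the opposite sign. With a filter at the 70th percentile only 9 receptor genes stayed measured, with their own values unchanged. The median was then 0.12 over receptor genes and 0.13 over monoamine receptor genes. With averaged probe sets both medians were -0.089. Leaving out probe sets that can match several transcripts gave a median of -0.33 for the transmitter list, which as reported was -0.01. The median of receptor partners, -0.05 as reported, was -0.11 with median centring and turned to 0.028 with averaged probe sets. The cause was not tested. No paired analysis was possible because each group has 1 array, and no array could be left out for the same reason. Low signal limits 24 of the 40 receptor genes, for which no difference is given outside the setting with no filter.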

Other observations

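Markers of vessel walls, which carry adrenergic and serotonin receptors, were partly higher in KO. Tagln, an actin-binding protein of smooth muscle, read 102 in KO and 60.9 in WT, 1.67-fold higher (0.74, array error 0.32). Pdgfrb, the growth factor receptor of pericytes, had a difference of 0.50 (error 0.26), and Myh11, the smooth muscle myosin, one of -0.19 (error 0.32). Of 13 measured endothelial and mural markers 8 were higher, with a median of 0.08. Pan-neuronal markers were higher in 4 and lower in 6 of 10, with a median of -0.02 and a summed signal of 35128 in KO and 35249 in WT.

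Median differences on the remaining marker lists were 0.02 for astrocytes, 0.02 for myelin, 0.00 for thalamus and 0.05 for hypothalamus. Microglial markers had a median of 0.18 and were higher in KO for 7 of 10 genes, led by Trem2 at 1.62-fold. Of the habenular markers 2 were measured, with a median of 0.19. The largest differences on the other lists were 0.56 for the vasopressin gene Avp, 0.51 for the striatal signalling regulator Rgs9, 0.65 for the cortical transcription factor Neurod6 and -0.58 for the choroid plexus folate receptor Folr1. Those of Synpo2 (thalamus), Aqp4 (astrocytes), Mog (myelin), Nwd2 (habenula) and Tubb3 (neurons) were -0.36, 0.34, 0.21, 0.25 and -0.23, and Myl4 (muscle) was 3.62-fold higher in KO.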
